A study of Mus musculus with 48 samples.

Results

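The livers of 48 mice were examined for the mRNA of 8 immune genes. Cd74, H2-Aa, H2-Ab1 and H2-Eb1 belong to antigen presentation on MHC class II, and Ighm, Cd3e, Cd79b and Ptprc belong to lymphocytes or to white blood cells in general. They were chosen by gene symbol, and all probe sets that carry that symbol alone were used, which gave 24 of 45037 probe sets and 8 of 18193 genes. Cd74, H2-Eb1, Cd3e and Cd79b have 1 probe set each, Ptprc has 2, H2-Ab1 has 3, H2-Aa has 4 and Ighm has 11, while 4 more Ighm probe sets that also carry other immunoglobulin symbols were left out. Where a gene is given by 1 value, that is its brightest probe set, the one with the highest mean level.

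All mice were male C57BL/6J, arrived at 6 to 7 weeks of age, ate standard food for 2 weeks and then the L-P/C-HF diet for 10 weeks, and the 48 with the largest glucose response in a tolerance test were kept. They were randomized to a switch to the H-P/C-HF diet (protein 30%, carbohydrate 15% and fat 55% of energy) or stayed on L-P/C-HF (protein 15%, carbohydrate 30% and fat 55%). The groups were H-P/C-HF 4-wk, L-P/C-HF 4-wk, H-P/C-HF 2-d and L-P/C-HF 2-d, each of 12 mice with 1 array per mouse, and 1 H-P/C-HF 2-d array (B25) was left out, so that 47 arrays were used. The 4-wk mice were also older, were killed on other days and had gone through another glucose tolerance test with an overnight fast, which cannot be told apart from the duration of the diet. No lean mice were included, and whole liver was measured, so fewer cells of a type and less RNA per cell cannot be told apart.

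MHC class II molecules are pairs of an alpha and a beta chain that show peptides from protein that a cell has taken up to CD4+ T cells. The product of Cd74, the invariant chain, escorts each newly made pair to the endosome and fills its peptide groove on the way, and the class II genes are switched on together by the coactivator CIITA. In liver they are made by dendritic cells and B cells, by Kupffer cells, which are the resident macrophages, and at lower levels by sinusoidal endothelium.

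The promoters of H2-Aa and H2-Eb1 are shown for their X and Y boxes, which lie just before the start of class II genes. Through these elements class II genes are controlled as a group. The levels of these genes moved together in the mice measured here, but the part of the boxes in that was not tested. The sequences are from RefSeq (GRCm38.p6) and cover the 150 bases before the start site in the direction of the gene, at chr17:34287824-34287973 on the minus strand for H2-Aa and at chr17:34305717-34305866 on the plus strand for H2-Eb1. Capitals mark a core of the X box, searched as CTNGNAAC, and a core of the Y box, searched as ATTGG, both written down after these sequences had been seen.
H2-Aa: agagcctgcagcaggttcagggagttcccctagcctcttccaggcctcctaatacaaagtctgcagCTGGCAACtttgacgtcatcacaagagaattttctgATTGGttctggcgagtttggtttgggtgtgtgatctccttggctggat
H2-Eb1: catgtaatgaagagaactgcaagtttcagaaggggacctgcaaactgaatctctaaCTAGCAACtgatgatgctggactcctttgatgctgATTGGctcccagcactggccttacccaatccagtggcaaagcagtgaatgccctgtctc
In H2-Aa the X box core began 84 bases and the Y box core 48 bases before the start, 36 bases apart. In H2-Eb1 they began 94 and 59 bases before the start, 35 bases apart, and a further ATTGG on the opposite strand is left in lower case. Over 32851 mouse promoters searched on both strands in the 250 bases before the start, 10.9% held the X box core, 33.8% the Y box core and 0.326% an X box core followed by a Y box core within 40 bases. Of the class II pathway, H2-DMb1, a chain of DM, also held the pair in its promoter, whereas of the 2 promoters of H2-DMa, the other chain, 1 held neither core and 1 held the Y box core alone. Neither core was found in the 1 promoter of Cd3e or the 2 of Ptprc in the table. The promoters of Cd74, H2-Ab1, Ighm and Cd79b are named only.

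The deposited values are RMA levels on a log2 scale, on which 1 unit is a doubling, and their precision is limited by how many arrays there are. Array medians lay between 6.73 and 6.91 and the median correlation of an array with the others between 0.9778 and 0.9912. The hepatocyte transcripts Alb, Apoa1 and Ttr were at 14.20 to 14.70 in every mouse used, near the top of the scale. An RNA quality measure that grows with degradation, the 3' less the 5' signal of control genes, had medians of 0.25 in H-P/C-HF 4-wk mice, 0.24 in L-P/C-HF 4-wk mice, 0.45 in H-P/C-HF 2-d mice and 0.44 in L-P/C-HF 2-d mice, and so differed between the durations. H2-Ea, a class II alpha chain that C57BL/6 mice are known not to make, had levels of 8.58 to 9.34, so a level of this size on the array does not by itself show that a gene is expressed. Probe sets marked _x_at or _s_at hold probes that can match related transcripts.

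After 4-wk part of the class II probe sets read higher than after 2-d on both diets, and most of these calls were lost with RNA quality as a covariate. Of the 24 probe sets of the 8 genes, 9 were higher at 4-wk on H-P/C-HF and 7 on L-P/C-HF (limma, adjusted p under 0.05 by Benjamini-Hochberg over all probe sets), and 0 were lower. Over all probe sets 6.69% were called on H-P/C-HF and 6.87% in L-P/C-HF mice, of which those higher made up 4.71% and 5.39% of all probe sets. At an unadjusted p under 0.05, 12 of 24 passed in H-P/C-HF mice (18.5% of all probe sets) against 11 of 24 on L-P/C-HF (17.3%). The unadjusted threshold of 0.001 in the study's methods left 8 on H-P/C-HF (4.73%) and 5 on L-P/C-HF (4.77%). The called probe sets belonged to Cd74, H2-Aa, H2-Ab1, H2-Eb1, Ighm and Ptprc in H-P/C-HF mice and to the same genes without H2-Eb1 in L-P/C-HF mice. By the brightest probe set, the median change over the 8 genes was 0.65 on H-P/C-HF and 0.46 in L-P/C-HF mice, against -0.02 and 0.01 over all genes. With RNA quality as a covariate, 1 of the 24 was called on each diet, H2-Ab1 through 1451721_a_at in H-P/C-HF mice and Ptprc in L-P/C-HF mice, where over all probe sets 1.38% were called on H-P/C-HF and 1.03% on L-P/C-HF.

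**Figure D1:**
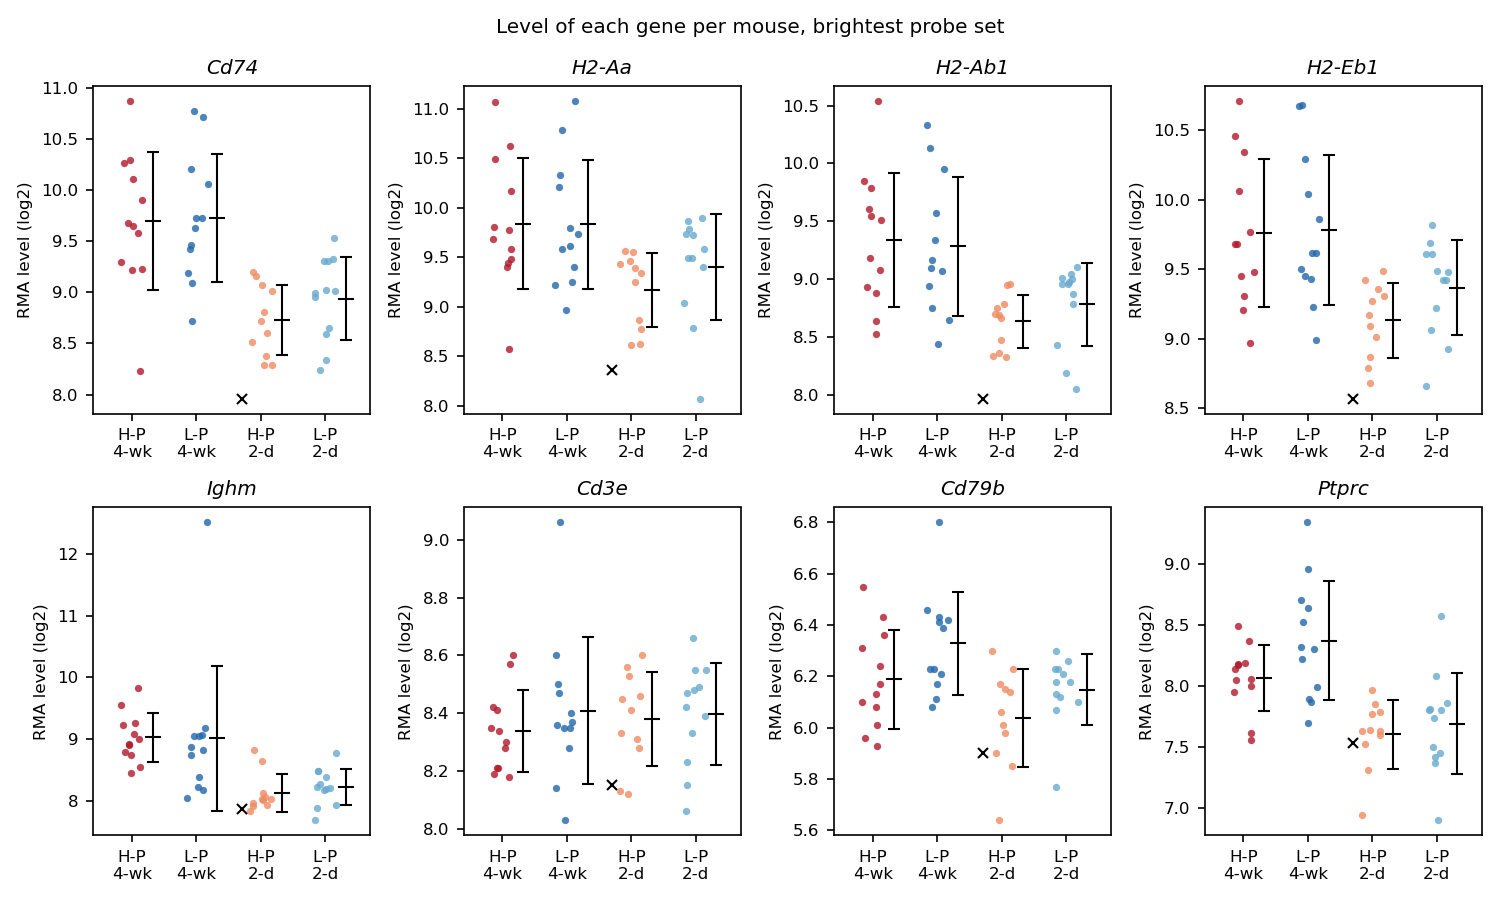
Log2 level of the brightest probe set of each of the 8 genes in every mouse, in the groups H-P/C-HF 4-wk, L-P/C-HF 4-wk, H-P/C-HF 2-d and L-P/C-HF 2-d. Points are mice, bars are the mean ± SD over the mice used, and the cross is B25, which was left out. Most 4-wk mice lie above the 2-d median of their diet for Cd74, the class II chains, Ighm and Ptprc. The ranges overlap, and on L-P/C-HF only 4 of 12 mice for H2-Aa, 6 for H2-Ab1 and 5 for H2-Eb1 exceed all 2-d mice. The 12.51 of mouse A24 stands alone for Ighm, while the groups coincide for Cd3e.

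Cd74 ranged from 8.23 to 10.87 in H-P/C-HF 4-wk mice, with a median of 9.67, and from 8.29 to 9.20 in H-P/C-HF 2-d mice, with a median of 8.72. Of the 12 mice at 4-wk, 11 lay above every 2-d mouse used and 1, B43, lay just below them all, at 8.23 against 8.29. The left-out 2-d mouse B25 was lower still, at 7.96. The log2 change was 0.96 (standard error 0.21, 1.95-fold, adjusted p = 0.00183 from limma). In L-P/C-HF mice the range was 8.72 to 10.77 at 4-wk (median 9.68) and 8.24 to 9.53 at 2-d (median 9.0), and 7 of 12 mice at 4-wk lay above all 2-d mice. This gave a log2 change of 0.79 (standard error 0.21, 1.73-fold, adjusted p = 0.00983). With the RNA quality covariate the changes in Cd74 were 0.85 in H-P/C-HF mice (adjusted p = 0.0632) and 0.65 in L-P/C-HF mice (adjusted p = 0.348), which did not pass.

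H2-Ab1, the beta chain of the I-A molecule, showed the largest change of the 24 probe sets on both diets, through 1451721_a_at. Its level ran from 7.06 to 9.66 with a median of 8.42 in H-P/C-HF 4-wk mice and from 6.75 to 7.69 with a median of 7.24 in H-P/C-HF 2-d mice, with 10 of 12 above the whole 2-d range. In L-P/C-HF mice it ran from 7.29 to 9.43 (median 8.33) at 4-wk and from 6.75 to 7.86 (median 7.46) at 2-d, with 11 of 12 above. The log2 changes were 1.18 (standard error 0.21, 2.27-fold, adjusted p = 1.11e-04 from limma) on H-P/C-HF and 1.0 (adjusted p = 6.41e-04) on L-P/C-HF. The dim probe set 1425477_x_at rose by 0.77 and 0.73 (adjusted p = 7.59e-04 and 0.00104 from limma), with ranges of 5.97 to 7.68 in H-P/C-HF 4-wk mice against 5.85 to 6.61 in H-P/C-HF 2-d mice. The brightest, 1450648_s_at, had medians of 9.35 at 4-wk and 8.69 at 2-d in H-P/C-HF mice and rose by 0.70 (adjusted p = 0.0111 from limma). In L-P/C-HF mice its medians were 9.14 at 4-wk and 8.96 at 2-d, and the change of 0.50 did not pass (adjusted p = 0.0864, and 0.0308 without mouse A13).

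The alpha chain of I-A, H2-Aa, passed through 1 of its 4 probe sets. On 1452431_s_at the H-P/C-HF mice were at 6.51 to 9.02 (median 7.79) at 4-wk and at 6.77 to 7.35 (median 6.94) at 2-d, where 9 of 12 exceeded and 1 lay below the 2-d range. The L-P/C-HF mice were at 6.89 to 8.85 (median 7.68) at 4-wk and at 6.38 to 7.73 (median 7.28) at 2-d, and 5 of 12 exceeded the 2-d range. The changes were 0.80 (standard error 0.20, adjusted p = 0.00829 from limma) on H-P/C-HF and 0.64 (standard error 0.20, adjusted p = 0.036) in L-P/C-HF mice. The brightest H2-Aa probe set, 1435290_x_at, was at medians of 9.73 at 4-wk and 9.34 at 2-d on H-P/C-HF, and at 9.67 at 4-wk and 9.54 at 2-d on L-P/C-HF. Its changes of 0.67 (adjusted p = 0.0577) and 0.43 (adjusted p = 0.31) did not pass, and the one in H-P/C-HF mice passed with B25 included (0.74, adjusted p = 0.0273). The remaining probe sets, 1438858_x_at and 1443783_x_at, differed by 0.38 and 0.42 on H-P/C-HF and by -0.02 and 0.15 in L-P/C-HF mice and were not called. The 4 probe sets of H2-Aa thus differed in size of change, although each tracked the brightest from mouse to mouse (Pearson's r 0.865 to 0.936 over 47 mice, group means subtracted).

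For H2-Eb1, the beta chain of the I-E molecule, whose alpha chain these mice lack, the H-P/C-HF levels were 8.97 to 10.71 (median 9.68) at 4-wk and 8.68 to 9.49 (median 9.17) at 2-d. The overlap was wider than for Cd74, with 7 of 12 mice at 4-wk above the 2-d range. The change was 0.63 (standard error 0.17, 1.55-fold, adjusted p = 0.0164 from limma). L-P/C-HF mice were at 8.99 to 10.68 (median 9.62) at 4-wk and at 8.66 to 9.82 (median 9.45) at 2-d, with 5 of 12 above, and the change of 0.41 did not pass (adjusted p = 0.153, 95% interval 0.07 to 0.75). H2-Ea, the missing alpha chain, had medians of 9.02 in H-P/C-HF 4-wk mice, 8.94 in L-P/C-HF 4-wk mice, 9.10 in H-P/C-HF 2-d mice and 9.10 in L-P/C-HF 2-d mice.

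At 4-wk the same mice lay at the ends of the class II range on most probe sets. In the H-P/C-HF 4-wk group B42 was the highest and B43 the lowest mouse on all 9 class II probe sets. Among L-P/C-HF 4-wk mice A18 was highest on 8 and A13 lowest on 7 of the 9. At 2-d the ends were shared by more mice, where B28 was highest on 3 and B26 lowest on 5 of 9 in the H-P/C-HF group, and A07 was highest on 3 and A09 lowest on 8 of 9 in the L-P/C-HF group. B43 was low only in part, since on the Ighm probe set 1427329_a_at it was the highest of its group at 8.36.

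Ighm, the heavy chain of IgM, was higher at 4-wk on 2 of its 11 probe sets. On the brightest, 1427351_s_at, H-P/C-HF mice were at 8.46 to 9.83 (median 8.97) at 4-wk and at 7.83 to 8.83 (median 8.03) at 2-d. All 12 mice at 4-wk were above the 2-d median and 8 were above the whole 2-d range. The change was 0.90 (standard error 0.26, 1.87-fold, adjusted p = 0.0209 from limma). L-P/C-HF mice were at 8.05 to 12.51 (median 8.86) at 4-wk and at 7.69 to 8.78 (median 8.22) at 2-d, with 7 of 12 above the 2-d range, and the change was 0.79 (adjusted p = 0.045). The 12.51 belonged to mouse A24, whereas the next mouse of that group was at 9.18. Without A24 the change in L-P/C-HF mice was 0.47 (adjusted p = 0.0299).

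On the other probe set, 1427329_a_at, H-P/C-HF mice ran from 6.73 to 8.36 (median 7.62) at 4-wk and from 6.47 to 7.42 (median 6.68) at 2-d, a change of 0.86 (adjusted p = 0.0208 from limma). L-P/C-HF mice ran from 6.8 to 10.88 (median 7.54) at 4-wk and from 6.14 to 7.44 (median 6.73) at 2-d. The change there was 0.92 (adjusted p = 0.0101), and 0.63 without A24 (adjusted p = 0.00333). In both diets 12 of 12 mice at 4-wk were above the 2-d median on this probe set. The other 9 Ighm probe sets changed by -0.15 to 0.07 on H-P/C-HF and by -0.08 to 0.17 in L-P/C-HF mice and were not called. Across mice 1427329_a_at followed the brightest with r = 0.955 and 1425385_a_at with r = 0.69, while the other Ighm probe sets had r of -0.021 to 0.507.

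Cd79b, a signalling chain of the B cell receptor, changed less. It was at 5.93 to 6.55 (median 6.15) in H-P/C-HF 4-wk mice and at 5.64 to 6.30 (median 6.06) in H-P/C-HF 2-d mice. On L-P/C-HF it was at 6.08 to 6.80 (median 6.31) in 4-wk mice and at 5.77 to 6.30 (median 6.18) in 2-d mice. Above the 2-d range were 4 of 12 mice on H-P/C-HF and 6 of 12 on L-P/C-HF, so the groups overlapped widely. The changes of 0.15 (95% interval 0.00 to 0.30, adjusted p = 0.279 from limma) and 0.18 (0.03 to 0.33, adjusted p = 0.157) did not pass. The group medians of Cd79b were below 6.79, the median level over all probe sets. The lack of a call therefore does not show that B cells stayed the same.

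Cd3e, a signalling chain of the T cell receptor complex, differed little between the groups. Its medians were 8.32 in H-P/C-HF 4-wk mice, 8.37 in L-P/C-HF 4-wk mice, 8.41 in H-P/C-HF 2-d mice and 8.45 in L-P/C-HF 2-d mice, and apart from A24 at 9.06 all mice were between 8.03 and 8.66. The changes were -0.04 in H-P/C-HF mice (95% interval -0.20 to 0.12, adjusted p = 0.837 from limma) and 0.01 in L-P/C-HF mice (-0.15 to 0.17, adjusted p = 0.972). The T cell receptor partners Cd3d, Cd3g and Cd247 had group medians of 6.09 to 6.11, of 4.69 to 4.75 and of 6.18 to 6.29. None of these 3 genes was called on either diet. The Cd3e levels lay within or below those of H2-Ea (8.58 to 9.34), which these mice do not make. The lack of a call for Cd3e therefore does not show that T cells stayed the same.

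Ptprc, which encodes the phosphatase CD45 of white blood cells, was higher at 4-wk on 1422124_a_at. H-P/C-HF mice were at 7.56 to 8.49 (median 8.10) at 4-wk and at 6.94 to 7.97 (median 7.63) at 2-d, with 9 of 12 above the 2-d range. L-P/C-HF mice were at 7.70 to 9.34 (median 8.31) at 4-wk and at 6.90 to 8.57 (median 7.77) at 2-d, with 4 of 12 above. The change of 0.68 in L-P/C-HF mice passed (standard error 0.15, 1.60-fold, adjusted p = 0.00139 from limma), also with the RNA quality covariate (0.69, adjusted p = 0.0322). The change of 0.46 in H-P/C-HF mice lay at the threshold (standard error 0.15, adjusted p = 0.0497), and the adjusted p ran from 0.0267 to 0.112 when single arrays were left out. The dim probe set 1440165_at was near 4.2 in all groups and changed by -0.03 and -0.06.

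**Figure D2:**
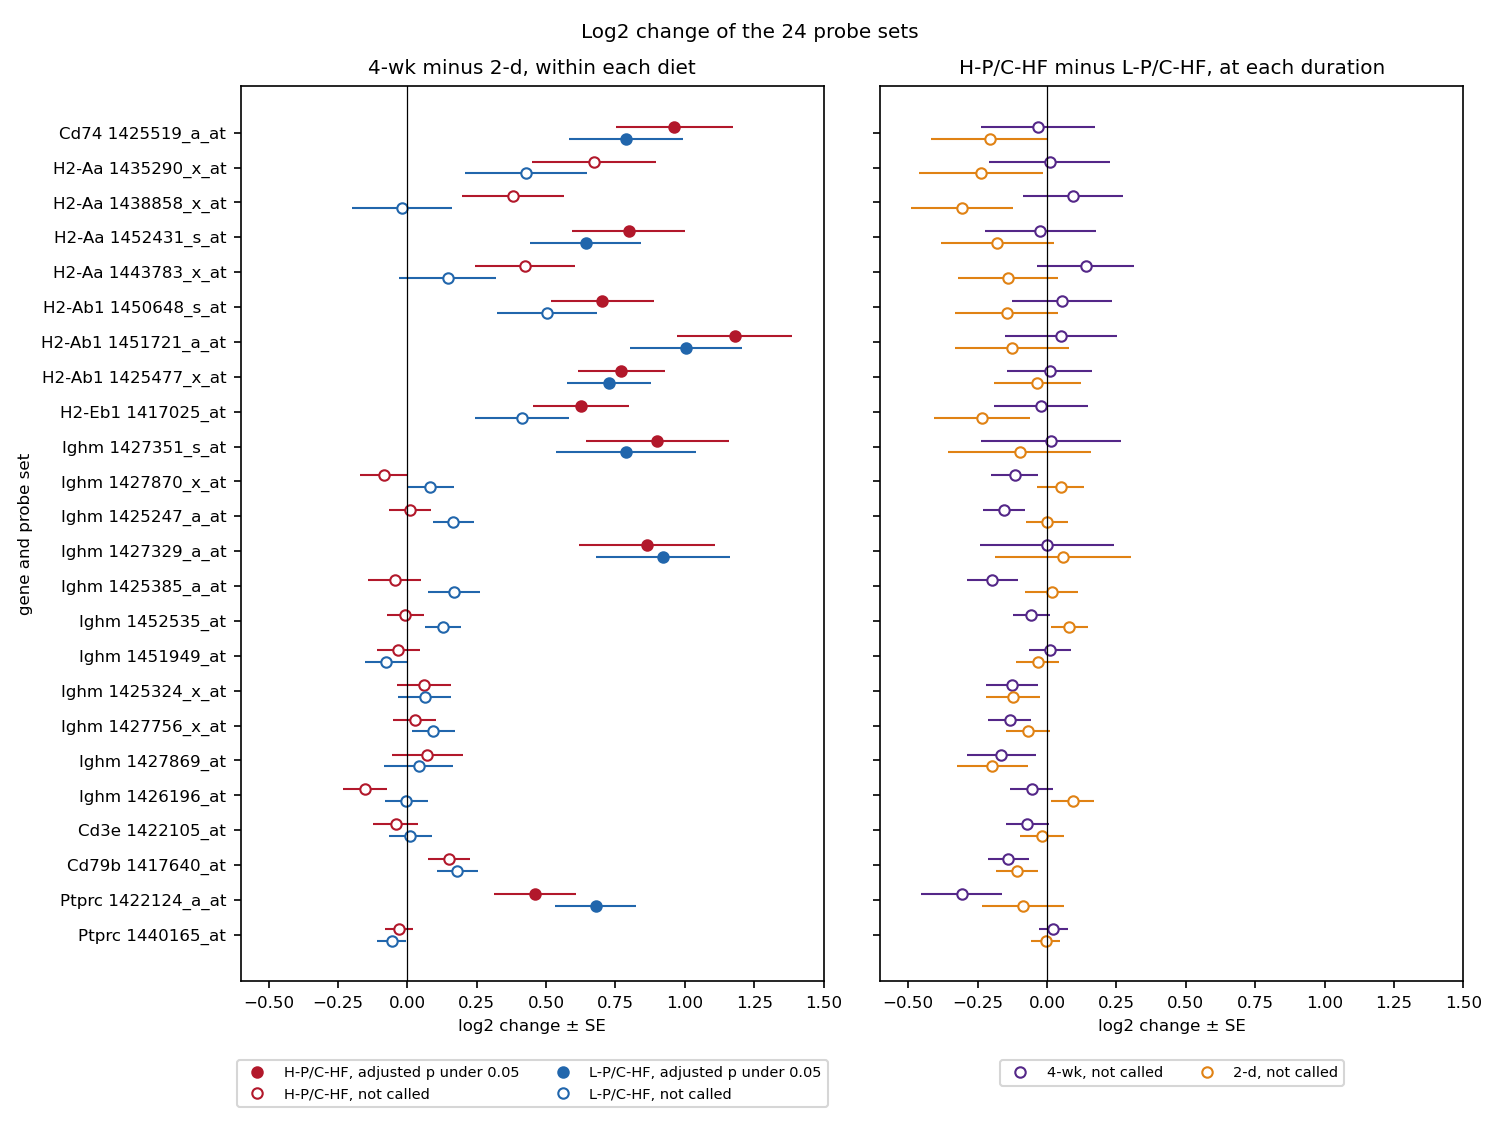
Log2 change ± standard error of the 24 probe sets, on the left 4-wk minus 2-d within each diet and on the right the diet difference (H-P/C-HF over L-P/C-HF) at each duration, with filled points for an adjusted p under 0.05. The called points are all in the left panel and all above 0, up to 1.18 for H2-Ab1, and no diet difference on the right is called.

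The diet itself made no difference that passed for any of these genes. At 2-d 0 of 24 probe sets were called, where 0.0133% of all probe sets were, and at 4-wk 0 of 24 were called, where 0% of all were. At an unadjusted p under 0.05 limma gave 0 of 24 at 2-d (3.52% of all probe sets) and 3 of 24 at 4-wk (2.76% of all), all 3 lower on H-P/C-HF (1.8% of all were lower). At an unadjusted 0.001 it gave 0 at 2-d (0.129% of all) and 0 at 4-wk (0.06%), and ordinary ANOVA called 0 at either duration. At 2-d all 8 brightest probe sets had a lower mean in H-P/C-HF mice, as had 8514 of all 18193 genes. Over the 24 probe sets 19 were lower and 5 higher. The median change of the 8 was -0.13 against 0.01 over all genes, and each 95% interval held 0. The class II genes moved together from mouse to mouse, so these directions are not independent. H2-Eb1 averaged 9.13 ± 0.27 in H-P/C-HF 2-d mice (SD, n = 11) and 9.37 ± 0.34 in L-P/C-HF 2-d mice (SD, n = 12), and 10 of the 11 mice on H-P/C-HF were below the median of those on L-P/C-HF. Its difference of -0.24 had a 95% interval of -0.58 to 0.11 (adjusted p = 1 from limma). Those of Cd74 (-0.21, interval -0.63 to 0.21), H2-Aa (-0.24, -0.69 to 0.21) and H2-Ab1 (-0.15, -0.52 to 0.23) were of like size, and their groups overlapped.

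At 4-wk the class II genes lay at almost the same level on both diets. The differences were -0.03 for Cd74 (95% interval -0.44 to 0.38), 0.01 for H2-Aa (-0.43 to 0.45), 0.05 for H2-Ab1 (-0.31 to 0.42) and -0.02 for H2-Eb1 (-0.36 to 0.32). These intervals leave room for a diet difference in either direction. Ighm differed by 0.02 (-0.49 to 0.52), and by 0.33 without A24 (p = 0.0228, adjusted p = 1 from limma). The lowest p values were those of the Ighm probe sets 1425385_a_at (-0.20, p = 0.0399) and 1425247_a_at (-0.16, p = 0.0431) and of Ptprc (-0.31, interval -0.60 to -0.01, p = 0.0404), each with an adjusted p of 0.999. On both of these Ighm probe sets A24 was the highest L-P/C-HF 4-wk mouse, at 7.76 (next 6.88) and 8.45 (next 8.24). With single arrays left out, their differences ran from -0.22 to -0.10 and from -0.19 to -0.12. Ptprc averaged 8.06 ± 0.27 in H-P/C-HF 4-wk mice and 8.37 ± 0.49 in L-P/C-HF 4-wk mice (SD, n = 12 each), and 10 of the 12 on H-P/C-HF were below the median of those on L-P/C-HF. Beside it, 8 of 20 Kupffer cell genes were lower in H-P/C-HF 4-wk mice at an unadjusted p under 0.05, where 1.8% of all probe sets were. After adjustment 0 of the 20 were called, as were 0% of all genes. The 8 included Marco, a scavenger receptor (-0.62, p = 0.00189 from limma), and Aif1, which encodes IBA1 (-0.41). The part of these cells in the Ptprc difference was not tested.

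The diet effect did not differ between the durations for any of the 24 probe sets by the interaction term (0 called, against 0% of all probe sets, and 0 at an unadjusted p under 0.05, against 1.63%). The difference of the diet effects, 4-wk minus 2-d, was 0.18 for Cd74 (95% interval -0.41 to 0.76), 0.25 for H2-Aa (-0.38 to 0.87), 0.20 for H2-Ab1 (-0.32 to 0.72) and 0.21 for H2-Eb1 (-0.27 to 0.70). For Ptprc it was -0.22 (-0.64 to 0.20). These intervals are wide, and a difference of diet effects of 0.5 on the log2 scale lies inside each of those of the class II genes.

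Markers of several liver cell types were also higher at 4-wk. The lists of marker and pathway genes were matched to 241 measured genes, and 48 of them changed on H-P/C-HF and 57 in L-P/C-HF mice (limma, adjusted over all 18193 genes), where 5.75% and 5.61% of all genes did and 4.01% and 4.46% rose. Of 20 Kupffer cell and macrophage genes, 13 rose on H-P/C-HF and 17 in L-P/C-HF mice, with median changes of 0.60 and 0.82. C1qb, a chain of complement C1q, rose by 1.47 on H-P/C-HF and 1.65 in L-P/C-HF mice, and Lyz2, the lysozyme of macrophages, by 1.20 and 1.57. The mean over the 20 genes ran from 8.18 to 9.42 in H-P/C-HF 4-wk mice and from 8.11 to 8.73 in H-P/C-HF 2-d mice, and from 8.71 to 9.84 in L-P/C-HF 4-wk mice and from 8.04 to 9.06 in L-P/C-HF 2-d mice. Of 10 genes of sinusoidal endothelium, 9 rose on each diet, among them the mannose receptor Mrc1 (1.26 in H-P/C-HF mice) and Oit3 (1.17 on H-P/C-HF and 1.28 in L-P/C-HF mice). Of 10 stellate cell genes 6 and 7 rose, for example Dcn, the proteoglycan decorin (0.66 and 0.62). With the RNA quality covariate the counts over the 241 genes were 30 on H-P/C-HF and 35 on L-P/C-HF, with 8 and 12 for Kupffer cells, where 2.08% and 1.62% of all genes were called. The part of these cell types and of RNA quality in the class II result was not tested.

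The lists of the lymphocytes themselves gave few calls, where 5.75% of all genes were called on H-P/C-HF and 5.61% on L-P/C-HF. In lists this short that share also amounts to few genes, so the counts do not set these lists apart. Of 19 B cell genes and of 16 NK cell genes 0 were called on either diet, with 1 B cell gene higher and 1 lower on H-P/C-HF and 2 higher in L-P/C-HF mice at an unadjusted p under 0.05. Of 19 T cell genes 1 fell in H-P/C-HF mice (Cd27, a costimulatory receptor, -0.20) and 1 rose in L-P/C-HF mice (Icos, another such receptor, 0.26). Of 11 genes of plasma cells and immunoglobulins 1 fell on each diet (Xbp1, a factor of the secretory pathway that hepatocytes also use, -0.24 and -0.30). The mean over the B cell list had medians of 6.66 in H-P/C-HF 4-wk mice, 6.67 in L-P/C-HF 4-wk mice, 6.63 in H-P/C-HF 2-d mice and 6.69 in L-P/C-HF 2-d mice. These lie below 6.79, the median level over all probe sets, so few calls do not show that these cells stayed the same.

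Against 4.01% of all genes on H-P/C-HF and 4.46% on L-P/C-HF, 3 of 16 genes that load or control class II rose on each diet. They included Ctss, the protease that trims the invariant chain (0.90 on H-P/C-HF and 0.84 in L-P/C-HF mice), and Lgmn, an endosomal protease (0.92 and 0.98). Ciita, the coactivator, had medians of 6.08 in H-P/C-HF 4-wk mice, 6.19 in L-P/C-HF 4-wk mice, 6.13 in H-P/C-HF 2-d mice and 6.12 in L-P/C-HF 2-d mice, and H2-DMa, a chain of the peptide exchange factor DM, had medians of 8.16, 8.09, 8.08 and 8.05 in the same groups. The Ciita medians lie below 6.79, the median level over all probe sets, and those of H2-DMa below the 8.58 to 9.34 of H2-Ea. Medians of like size therefore do not show that these 2 genes stayed the same. Of 19 genes shared by white blood cells 8 rose on H-P/C-HF and 10 in L-P/C-HF mice, for example Cd53, a membrane protein of white blood cells (0.69 and 0.84). Of 12 signalling partners of CD45 1 rose on each diet, the kinase Fyn (0.41 and 0.40). In a list this short 1 call does not set it apart from the share over all genes.

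**Figure D3:**
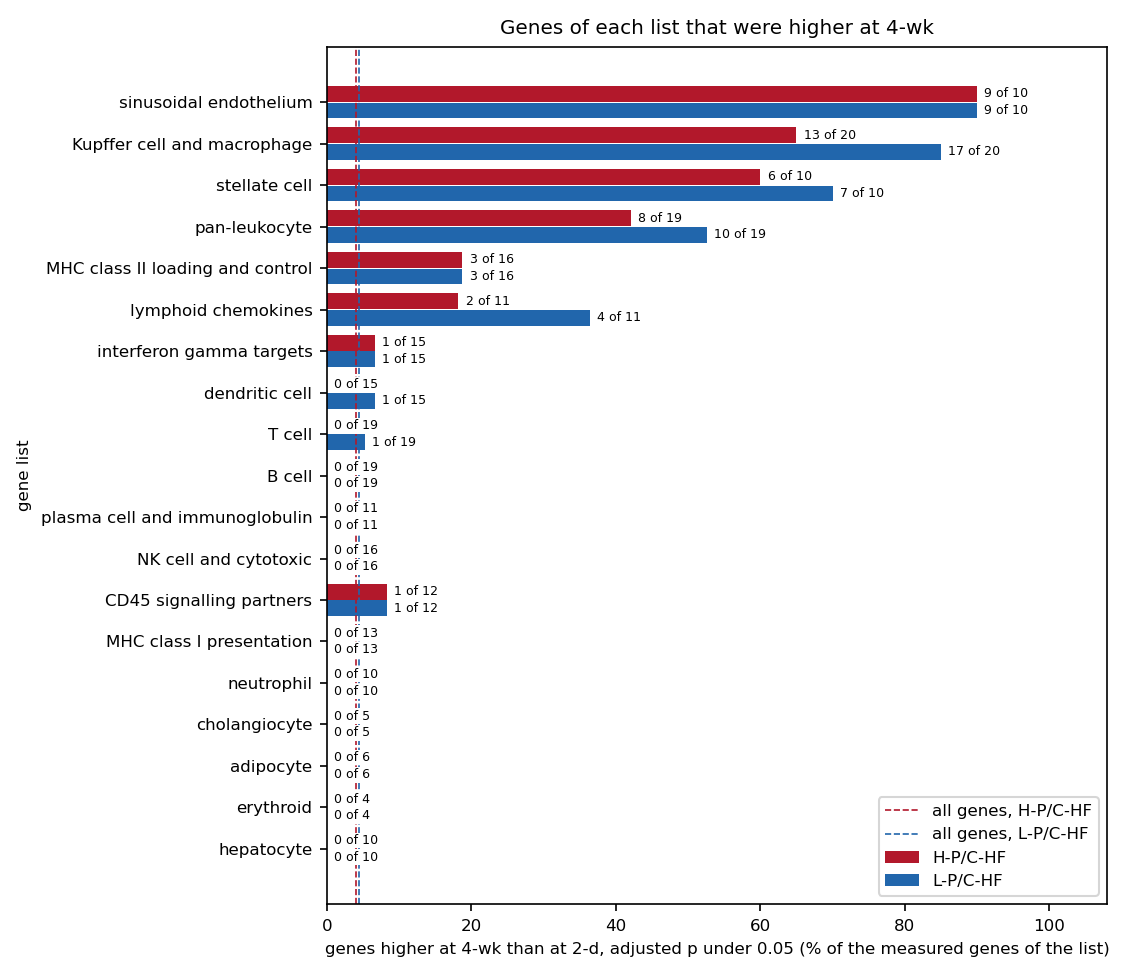
Share of each list's measured genes that were higher at 4-wk than at 2-d, in percent of the list, in H-P/C-HF and in L-P/C-HF mice, with the share over all genes dashed. Sinusoidal endothelium (9 of 10 on each diet) and Kupffer cells (13 and 17 of 20) lead. At 0 on both diets are the B cell, plasma cell, NK cell, MHC class I, neutrophil, cholangiocyte, adipocyte, erythroid and hepatocyte lists.

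From mouse to mouse the class II genes moved almost together. With group means subtracted, the 6 pairs among Cd74, H2-Aa, H2-Ab1 and H2-Eb1 had Pearson's r of 0.94 to 0.963 and Spearman's rho of 0.929 to 0.962 over 47 mice (permutation p = 0.00001, the smallest that 100000 permutations within groups can give, adjusted p = 3.11e-05 over 28 pairs of the 8 genes). Without the 2 mice farthest from the median, r was 0.925 to 0.968, and within single groups it was 0.822 to 0.987. Among 9096 genes of at least median level, the 3 closest to each class II gene were the other 3 of these 4 genes. Ptprc followed them less closely, with r of 0.701 with Cd74 (rho 0.699, 0.693 without the 2 farthest mice), 0.665 with H2-Ab1, 0.639 with H2-Aa and 0.617 with H2-Eb1 (permutation adjusted p at most 5.60e-05). Within the L-P/C-HF 2-d group these were only 0.289 to 0.541, and within the H-P/C-HF 4-wk group 0.834 to 0.892. All points of these relations share arrays and their normalization.

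**Figure D4:**
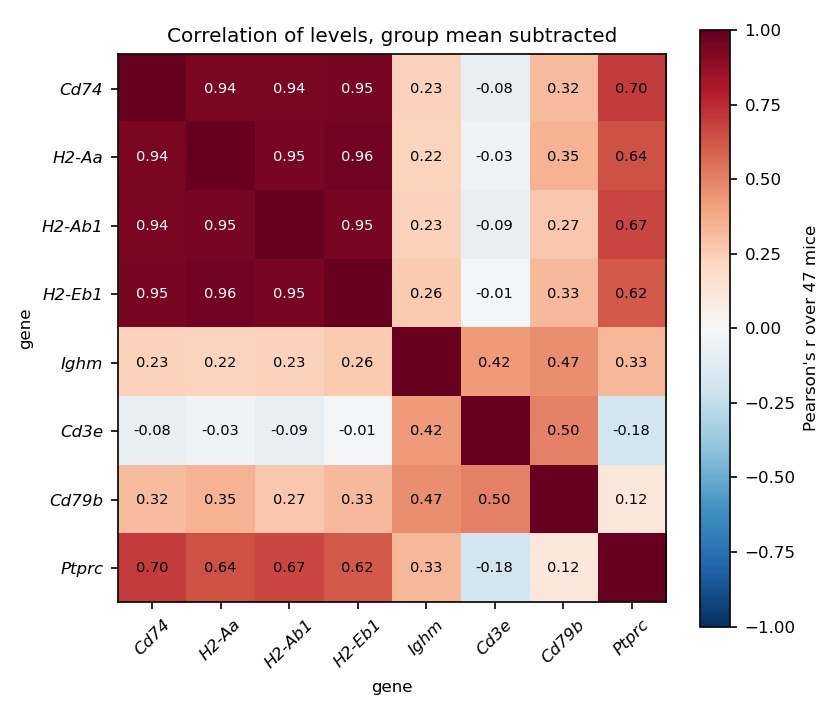
Pearson's r between the 8 genes over 47 mice, with the mean of each group subtracted, by the brightest probe set of each. Cd74, H2-Aa, H2-Ab1 and H2-Eb1 form a block at 0.94 or more, Ptprc joins it at 0.617 to 0.701, and Cd3e lies between -0.085 and -0.011 with these 4 genes.

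The lymphocyte genes did not form such a block. In all, 13 of the 28 pairs had an adjusted p under 0.05 by permutation. Cd3e and Cd79b had r = 0.501 (rho 0.409, permutation adjusted p = 0.00242), with 0.741 within the H-P/C-HF 2-d group and -0.25 within the H-P/C-HF 4-wk group, and r = 0.296 without A01, A09 and A24 (adjusted p = 0.11). Ighm and Cd79b had r = 0.466 (rho 0.296, permutation adjusted p = 0.0126), but 0.211 without the 2 farthest mice and 0.245 without A01, A09 and A24 (adjusted p = 0.174), so this relation rested on those mice. H2-Aa and Cd79b had r = 0.35 (rho 0.328, permutation adjusted p = 0.0452), and 0.194 without the 2 farthest mice. The closest genes were again sought among the 9096 of at least median level, which leave out Jchain, with mouse A24 included. Those closest to Ighm were Col4a6 (r = 0.667), Mzb1, a chaperone of IgM in plasma cells and B cells (0.635), and 4933407O12Rik (0.568). Those closest to Ptprc were the adhesion receptor Cd44 (0.881), Sirpa, an inhibitory receptor of myeloid cells (0.854), and Tmsb4x, the actin-binding thymosin beta 4 (0.842). Closest to Cd3e were Hcn3 (0.794), Mex3a (0.785) and Cpa4 (0.76), and closest to Cd79b were Adam33 (0.78), Retn (0.698) and Agtrap (0.684).

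Of 9 pairs of a gene with a known partner, 1 had an adjusted p under 0.05. Cd3e had r of 0.218 with Cd3d, 0.34 with Cd3g and 0.26 with Cd247, and Cd79b had 0.348 with Cd79a, its own partner in the B cell receptor (permutation adjusted p of 0.104 or more). Ptprc and Ptprcap, the CD45-associated protein, had -0.038, Cd74 and Ciita -0.041, H2-Aa and H2-DMa 0.109, and H2-Eb1 and H2-Ea -0.03. H2-Ea is not made by these mice, so its pair could not show a relation. Cd3d, Cd3g, Cd247, Cd79a and Ciita had group medians below 6.79, the median level over all probe sets. A low r with such a dim partner does not show that the genes of the pair vary apart. Ighm and Jchain, which joins IgM into pentamers, had r = 0.858 but rho = 0.382 (permutation adjusted p = 0.00216 for r and 0.114 for rho), and r = 0.479 without the 2 farthest mice. Within groups this r was 0.84 in H-P/C-HF 4-wk mice, 0.939 in L-P/C-HF 4-wk mice, 0.591 in H-P/C-HF 2-d mice and -0.268 in L-P/C-HF 2-d mice.

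Mouse A24, of the L-P/C-HF 4-wk group, stood apart on several antibody and lymphocyte genes and not on class II. Its Ighm level of 12.51 was above the 9.83 that the other mice reached, and its Jchain level was 9.45 against at most 7.17. Mzb1 was at 8.35 in A24 and at most 7.75 in its group, and Cd3e was at 9.06 and Cd79b at 6.80, against at most 8.60 and 6.46 in its group. Cd79a at 6.78 (others of the group up to 6.81), Ptprc at 8.96 (up to 9.34) and 3 of the 11 Ighm probe sets lay inside the range of the group. Cd74 was at 10.06 in A24 and up to 10.77 in the other mice of the group, and the mean over Kupffer cell genes was 9.40, below the highest of 9.84. Alb and Apoa1 had their lowest level of the group in A24, at 14.49 and 14.36. Its array had the highest median of all, 6.91, and a median correlation with the others of 0.9798, near the low end of the range. The part of the array itself in these levels was not tested.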

How the data were processed

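Liver RNA of 48 mice was hybridised to Affymetrix mouse arrays, 1 per mouse. The deposited values are log2 levels that the authors made by RMA, which corrects the background, normalizes the arrays to each other and gives 1 value per probe set. The log base was read from the range of values (3.16 to 14.81), since it is not given in the sources used here. The sample label HPHC was taken as H-P/C-HF and HFHC as L-P/C-HF. Array B25 was left out, as in the methods of the study.

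The table holds 45101 probe sets. Without 64 controls, 45037 entered the tests, of which 34945 carry 1 gene symbol, 932 several and 9160 none. A model with 1 mean for each of the 4 groups was used in limma 3.58.1 under R 4.3.3 (lmFit, eBayes with trend), two-sided, with Benjamini-Hochberg adjustment over all probe sets, or over 18193 genes for lists, and calls at 0.05. The methods of the study used ANOVA with Global Error Assessment at an unadjusted 0.001, and that software was not used here. Correlations used 100000 permutations within groups (Python 3.11.15, numpy 2.4.6, scipy 1.17.1, pandas 2.3.3, matplotlib 3.10.9). Named genes are the 8 genes, up to 4 of each list by the smallest p, the 3 closest correlates, their known partners, and H2-Ea, Alb, Apoa1 and Ttr. The genes, lists and tests were chosen with earlier results of these data known. The procedure was tested on simulated data. Alternatives were B25 included, A01, A09 and A24 left out, array weights, median centring, cyclic loess, brighter probe sets only, no trend, a separate fit, the replicate number as a block, RNA quality as a covariate, ordinary ANOVA, the mean of a gene's probe sets and each array left out in turn. Leaving out single arrays, RNA quality in the lists and against each gene, and the partner pairs were chosen after seeing the data.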

Additional observations from a re-analysis of the deposited data

Results flagged for a closer look

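Array B25 (H-P/C-HF 2-d), which the comparisons left out, read above every L-P/C-HF 2-d mouse on 4 of the 24 probe sets. On Ighm probe sets it was at 6.54 (1451949_at, highest L-P/C-HF 2-d mouse 5.94), 6.05 (1425324_x_at, 5.96) and 5.92 (1427756_x_at, 5.70), and on the dim Ptprc probe set 1440165_at at 4.74 (4.44). On 4 others it lay below all 2-d mice, with Cd74 at 7.96, H2-Ab1 at 7.97, H2-Eb1 at 8.57 and the Ighm probe set 1427870_x_at at 8.08, and on 16 it lay within their range.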

How the results depend on the processing

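Over the alternatives, 419 changes of single genes kept their direction and their side of the threshold, 17 no longer passed, 7 newly passed and 16 turned direction. For 4-wk minus 2-d the count of called probe sets was 9 of 24 on H-P/C-HF and 7 in L-P/C-HF mice. With the RNA quality covariate it was 1 and 1 (1.38% and 1.03% of all probe sets), over the mean of each gene's probe sets 3 and 3 of 8 genes (6.69% and 6.51% of all genes), and in L-P/C-HF mice 4 by a separate fit (4.69% of all probe sets) and 4 by ordinary one-way ANOVA (3.68%). Without single arrays it ranged from 8 to 10 on H-P/C-HF and from 5 to 8 in L-P/C-HF mice, and from 0 to 0 for the diet comparisons. The list counts of 48 and 57 were 30 and 35 with the RNA quality covariate (2.08% and 1.62% of all genes). Why the covariate lowered the counts was not tested. With group means subtracted, the 3' minus 5' signal had r of -0.138 to 0.111 with the 8 genes over 47 mice (permutation adjusted p = 0.947 for each). Inside single groups r ran from -0.46 to 0.522. Subtracting group means removes the difference in RNA quality between the durations, so these r cannot address it. By the mean of its probe sets Ighm changed by 0.15 on H-P/C-HF and 0.22 in L-P/C-HF mice.

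With the label's replicate number as a block, the counts were 10 in H-P/C-HF mice, 7 in L-P/C-HF mice and 0 for the diet at 2-d, 0 for the diet at 4-wk and 0 for their difference, and 1 call changed, that of the brightest H2-Aa probe set in H-P/C-HF mice (0.70, adjusted p = 0.0305). The numbers did not pair the mice, since arrays with the same number had a median r of -0.021 over 69 pairs and 3 arrays correlated best with their own number.

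Directions that turned were all of small changes that were not called. For the diet difference at 4-wk they were Cd74 (0.074 with array weights), H2-Aa (-0.005 with the RNA quality covariate), H2-Eb1 (0.002 without A01, A09 and A24, 0.105 with array weights) and Ighm (-0.089 by the mean of probe sets). For the difference of the diet effects they were Ighm (-0.069 by the mean of probe sets), Cd3e (0.024 without A01, A09 and A24, 0.003 with array weights) and Cd79b (0.040, 0.008 and 0.004 with these settings and with cyclic loess). For 4-wk minus 2-d in L-P/C-HF mice it was Cd3e (-0.066 without A01, A09 and A24, -0.029 with array weights, -0.008 with median centring, -0.011 with cyclic loess, -0.002 with the RNA quality covariate).

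Among calls near the threshold, that of Ptprc in H-P/C-HF mice was kept only when the array left out was A01, A04, A08, A09, A11, A13, A17, A18, A19, A24, B28, B30, B31, B37, B40 or B43, and was lost without any of the other 31 (adjusted p up to 0.112). The call of Ighm 1427351_s_at in L-P/C-HF mice was lost without A01, A02, A03, A04, A05, A06, A09, A10, A11, A14, A17, A18, A19, A20 or A21 (up to 0.0768), and that of H2-Aa 1452431_s_at without A01, A02, A09, A11, A12, A14, A18, A20, A23 or A24 (up to 0.0883). H2-Aa 1435290_x_at passed in H-P/C-HF mice without A09, A18, B37, B40 or B43 (down to 0.0143). The separate fit and the ANOVA give no value for the difference of the diet effects. Of the correlations 39 kept their call and 3 lost it without A01, A09 and A24 (H2-Aa with Cd79b 0.226, Ighm with Cd79b 0.245, Cd3e with Cd79b 0.296).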

Other observations

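Between 4-wk and 2-d, 4.01% of all genes rose on H-P/C-HF and 4.46% in L-P/C-HF mice, and the counts of other immune gene groups are read against these shares. Of 13 measured genes of MHC class I presentation, which shows peptides from inside the cell to CD8+ T cells, 0 were called on either diet, and the same held for 10 neutrophil genes. Of 15 dendritic cell genes 0 rose on H-P/C-HF and 1 in L-P/C-HF mice (Cd83, a maturation marker, 0.36). Of 15 genes listed for interferon gamma, the cytokine that induces class II, 1 rose and 1 fell on each diet. Ifngr1, a chain of its receptor and not a target, rose (0.33 on H-P/C-HF and 0.28 in L-P/C-HF mice). The GTPase Iigp1, a target, fell (-0.31 and -0.32). Of 11 lymphoid chemokines and their receptors 2 rose on H-P/C-HF and 4 in L-P/C-HF mice, with Cxcr6 in both (0.29 and 0.27), Cxcl12 in H-P/C-HF mice (0.60) and Cxcl13, which draws B cells, in L-P/C-HF mice (0.36), and 9 of the 11 on H-P/C-HF and 10 on L-P/C-HF had a positive change. Of the 11, 1 was called on H-P/C-HF and 0 on L-P/C-HF with the RNA quality covariate. Of 10 hepatocyte genes 2 fell on H-P/C-HF and 1 in L-P/C-HF mice, with Hnf4a in both (-0.30 and -0.29). Among 5 cholangiocyte, 6 adipocyte and 4 erythroid genes 0 were called.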
